A study of Mus musculus with 6 samples.

Results

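Malat1 is a long noncoding RNA on the minus strand of chromosome 19, and Hnrnpa2b1 bound it at many places in these muscle cells. Its peaks were selected by position alone: a peak belonged to Malat1 when it lay on that strand and wholly between 5795600 and 5802700 of the mm9 mouse genome. The 4 deposited peak lists together held 3895 peaks, and 1299 of them met the rule. The lists contain only sites that had already passed a test of immunoprecipitated against input reads, so the presence and number of peaks are given as a description. The enrichment scores were not used to choose them.

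Malat1 is made by RNA polymerase II, stays in the nucleus and gathers in nuclear speckles, the bodies that store splicing factors. It is among the most abundant long noncoding RNAs of many cell types and is mostly unspliced. Its mature 3′ end is cut by RNase P, which releases a small tRNA-like RNA, and is then protected by a triple helix. Hnrnpa2b1 is a nuclear RNA-binding protein with paired RNA recognition motifs that acts in splicing, RNA transport and RNA stability, and mutations in it cause degeneration of muscle and other tissues.

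Binding was mapped by eCLIP, a form of crosslinking and immunoprecipitation: UV light links protein to RNA in living cells, an antibody to Hnrnpa2b1 recovers the complexes, and their RNA is sequenced. C2C12 is a mouse myoblast line whose cells fuse into myotubes after transfer to low-serum medium. C2C12 myoblasts were grown in 20% fetal bovine serum, and differentiated C2C12 cells in 5% horse serum with an ITS supplement for 8 to 10 days per the labels. The methods of the study give a shorter time and a whole-cell lysate where the labels give isolated nuclei. Which description applies to these libraries is not known. There were 2 immunoprecipitation (IP) libraries per state, replicates A and B. The labels list 1 input sample per state and the methods an input for every replicate, so whether replicates share an input is not known. The labels name no transgene or deletion. The lists hold no expression levels, so the labelled states could not be checked against marker genes, and an RNA level that differs between the states cannot be told apart from a difference in binding by peak numbers.

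Positions along Malat1 are counted from the 5′ edge of the window, at coordinate 5802700, since the RNA runs towards lower coordinates. The window is 7101 nt long. In C2C12 replicates A and B the first peak began at position 33 and the last ended at position 6619. In differentiated C2C12 these positions were 36 and 6624 in replicate A and 39 and 6626 in replicate B. The outermost peaks therefore lay within 7 nt of each other in all 4 libraries. The last 482, 482, 477 and 475 nt of the window, in the same order, held no peak.

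No peak crossed an edge of the window, and 0 peaks lay on the opposite strand. Beyond the 5′ edge, the nearest peaks on the same strand lay 22958 and 23395 nt away in C2C12 A and B, with log2 fold enrichments of 1.58 and 1.10. In differentiated C2C12 A and B they lay 23227 and 22077 nt away, with log2 fold enrichments of 1.73 and 0.55. Within 10 kb of the 3′ edge there were 0 peaks on the strand. A small outward shift of either edge would therefore not have changed which peaks were taken. An inward shift of the 5′ edge past position 33, where the first C2C12 peaks began, would have.

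**Figure D1:**
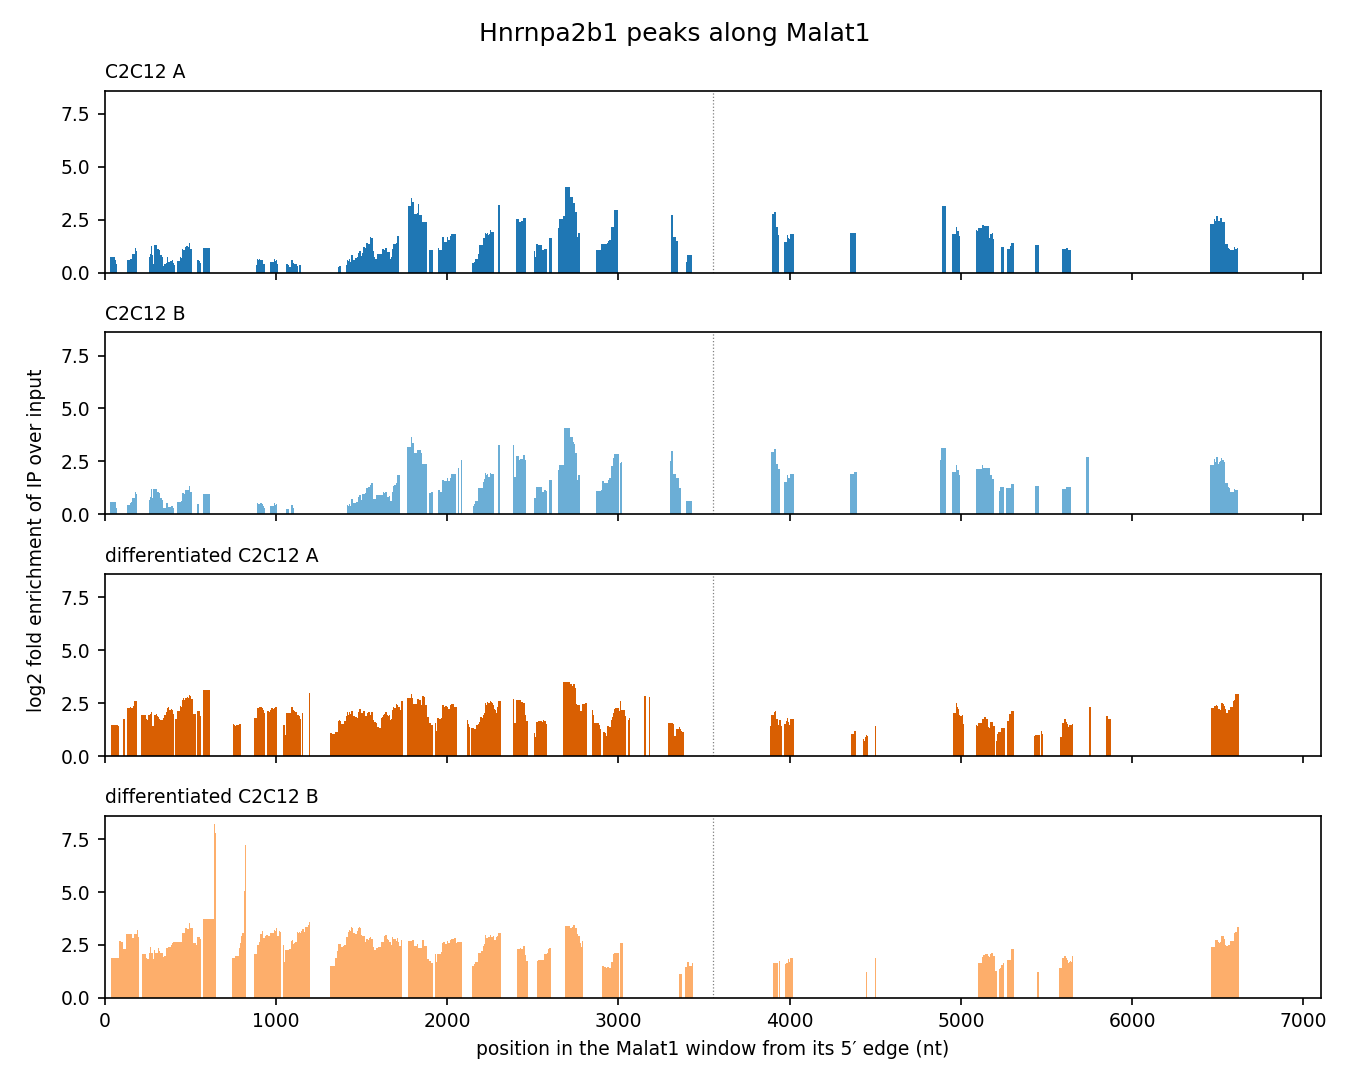
Peaks of each library along Malat1, with position from the 5′ edge of the window in nt on the x axis and log2 fold enrichment of IP over size-matched input on the y axis; the dotted line marks the middle of the window. In both C2C12 libraries the peaks before position 1500 are low, and in both differentiated C2C12 libraries they are as high as those further along, while the tall group between positions 2651 and 2817 is present in all 4.

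Malat1 had 269 peaks in C2C12 A and 247 in C2C12 B. It had 446 peaks in differentiated C2C12 A and 337 in differentiated C2C12 B. The lowest differentiated library was above the highest myoblast library, and the means were 258 ± 15.6 and 391.5 ± 77.1 peaks (SD, n = 2 each). The difference of 133.5 peaks became 79 without differentiated C2C12 A. The exact two-sided permutation test over libraries gave p = 0.333. This is the smallest value possible with 2 libraries against 2, and it is also the p of every comparison of the states below in which the libraries did not overlap.

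As a share of each list, Malat1 went the other way. It made up 45.3% (95% Wilson interval 41.3 to 49.3) and 41.8% (37.9 to 45.8) of the peaks in C2C12 A and B. In differentiated C2C12 A and B it made up 29.8% (27.5 to 32.1) and 27.8% (25.4 to 30.4). Of the nucleotides covered by each list, Malat1 took 12.0% and 11.6% in C2C12 myoblasts and 5.29% and 4.21% in differentiated C2C12. Both shares were lower in each differentiated library, and peaks outside Malat1 numbered 325 and 344 in C2C12 myoblasts and 1053 and 874 in differentiated C2C12. The intervals cover counting error only and treat adjoining peaks as independent.

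The number of Malat1 peaks depended on how the peak caller divided bound stretches. The median width was 7 nt in both C2C12 libraries and 6 nt in both differentiated libraries, with widths from 1 to 61 nt. Peaks that touched a further Malat1 peak end to end made up 94.8% and 94.7% in C2C12 myoblasts and 97.3% and 97.6% in differentiated C2C12. Joining them left 44 and 45 stretches in C2C12 myoblasts and 51 and 31 in differentiated C2C12, so the states overlapped in the number of stretches (exact permutation p = 1). No nucleotide was counted in more than 1 peak of a list, and the covered length does not depend on this division.

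The states differed less in covered length than in peak number. Peaks covered 2375 and 2417 nt of the window in C2C12 A and B, which is 33.4% and 34.0% of its length. They covered 3089 and 2835 nt in differentiated C2C12 A and B, 43.5% and 39.9% of the length. The libraries did not overlap, and the means of 2396 ± 29.7 and 2962 ± 180 nt (SD, n = 2 each) differed by 566 nt, a ratio of 1.24 against 1.52 for peak number.

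The additional covered sequence lay on the 5′ side. The window was divided into a 5′ part of 3550 nt and a 3′ part of 3551 nt. In the 5′ part, peaks covered 1773 and 1745 nt in C2C12 myoblasts and 2288 and 2292 nt in differentiated C2C12. In the 3′ part they covered 602 and 672 nt in C2C12 myoblasts and 801 and 543 nt in differentiated C2C12. The states were apart by 531 nt in the 5′ part, where replicates differed by little, and overlapped in the 3′ part (difference 35 nt, exact permutation p = 1). In all 4 libraries most of the bound sequence lay in the 5′ part, with 74.7% and 72.2% in C2C12 myoblasts and 74.1% and 80.8% in differentiated C2C12, and these shares overlapped between the states (exact permutation p = 0.667). Their difference of 4.03 percentage points was 0.64 without differentiated C2C12 B and 7.42 without differentiated C2C12 A.

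**Figure D2:**
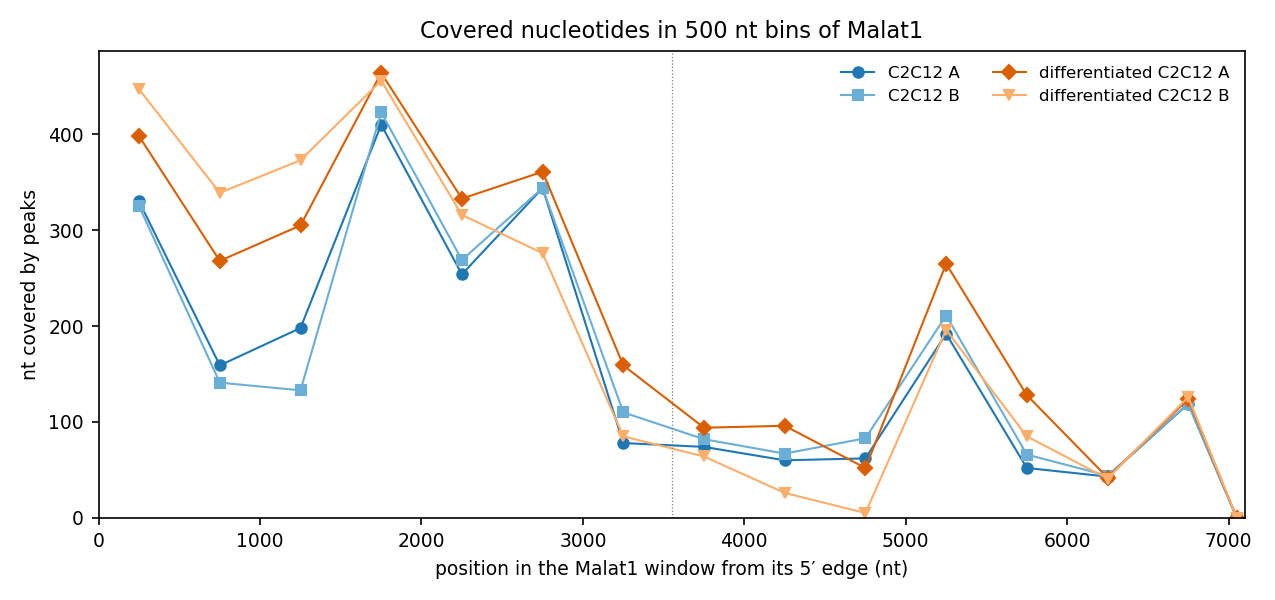
Nucleotides covered by peaks in consecutive bins of 500 nt, plotted at the middle of each bin by position from the 5′ edge in nt, with 1 line per library; the last bin is shorter. Coverage is highest from position 1501 to 2000 in all 4 libraries, at 410 to 464 nt, and both differentiated libraries lie above both C2C12 libraries in each of the first 5 bins.

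Coverage was then counted in bins of 500 nt. From position 1501 to 2000, peaks covered 410 and 423 nt in C2C12 myoblasts and 464 and 456 nt in differentiated C2C12. This was the widest coverage of any bin in every library. From 3001 to 5000 coverage was lower than in any earlier bin of the same library. A second rise followed from 5001 to 5500, with 192 and 211 nt in C2C12 myoblasts and 265 and 196 nt in differentiated C2C12. In C2C12 myoblasts this was above the 159 and 141 nt covered from 501 to 1000. The states differed most from 1001 to 1500, where 198 and 133 nt were covered in C2C12 myoblasts and 305 and 373 nt in differentiated C2C12. From 4501 to 5000 coverage was lower in differentiated C2C12, at 52 and 5 nt against 62 and 83 nt.

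Enrichment over input was then compared along the RNA. The log2 fold enrichment of a peak is the authors' ratio of IP to size-matched input reads in it. Over all Malat1 peaks its median was 1.14 in C2C12 A (range 0.27 to 4.05) and 1.29 in C2C12 B (0.24 to 4.08). It was 1.96 in differentiated C2C12 A (0.72 to 3.50) and 2.61 in differentiated C2C12 B (1.12 to 8.23). Both differentiated libraries were above both myoblast libraries, by 1.07 on the log2 scale between the means, and the differentiated replicates differed more from each other (SD 0.46) than the myoblast replicates did (SD 0.11). With touching peaks joined, the difference of the means was 0.54. Peaks with a log2 fold enrichment below 1 numbered 102 and 81 in C2C12 myoblasts and 14 and 0 in differentiated C2C12.

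The difference between the states was concentrated at the 5′ end of Malat1. From position 1 to 500 the mean log2 fold enrichment per covered nucleotide was 0.78 and 0.73 in C2C12 A and B and 2.04 and 2.48 in differentiated C2C12 A and B. From 501 to 1000 it was 0.74 and 0.64 in C2C12 myoblasts and 2.18 and 3.18 in differentiated C2C12. From 1001 to 1500 it was 0.52 and 0.50 against 1.81 and 2.72. In these 3 bins the states were further apart than anywhere else on the RNA, by up to 1.99 between the means, and the replicates of each state were closer to each other than to the other state. The first 1500 nt had the lowest enrichment of all bins in both C2C12 libraries, which was not so in either differentiated library.

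**Figure D3:**
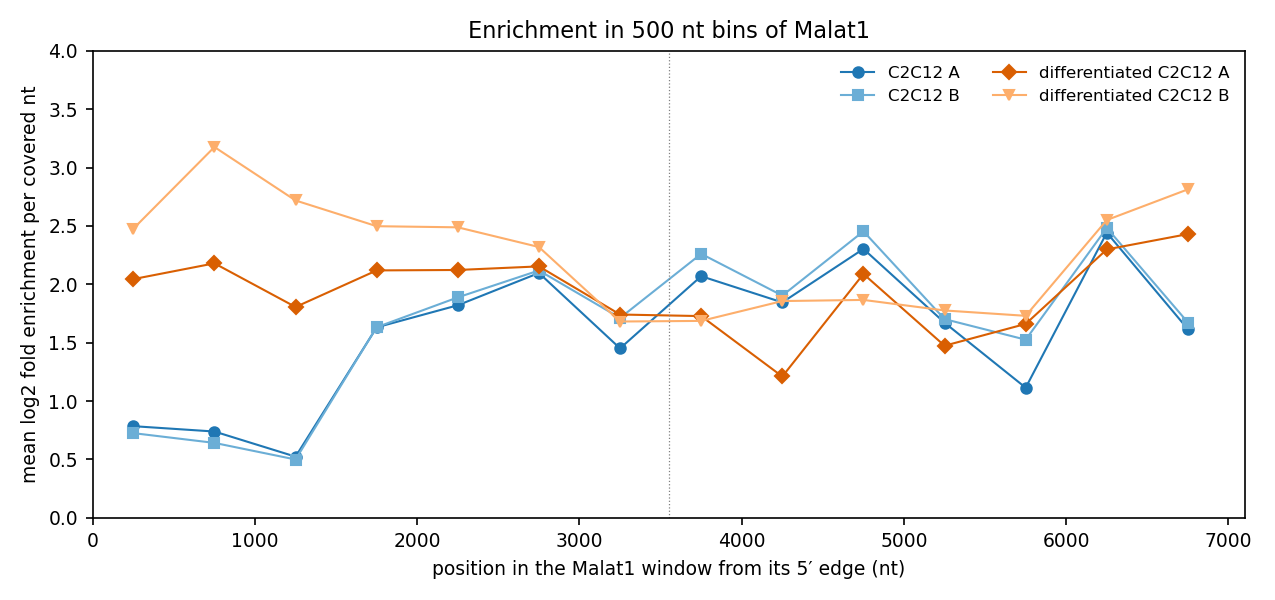
Mean log2 fold enrichment per covered nucleotide in bins of 500 nt, plotted at the middle of each bin by position from the 5′ edge in nt, with 1 line per library; the bin after position 7000 held no peak and is not shown. The states are far apart up to position 1500, differ by 0.13 at positions 2501 to 3000, and change order from bin to bin beyond that.

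Further along, the difference became smaller and then changed sign. From 1501 to 2000 the mean log2 fold enrichment was 1.63 and 1.63 in C2C12 myoblasts and 2.12 and 2.50 in differentiated C2C12. From 2501 to 3000 it was 2.10 and 2.12 against 2.15 and 2.32. From 3501 to 4000 it was lower in both differentiated libraries, at 1.73 and 1.69 against 2.07 and 2.26, and it was lower again from 4501 to 5000, at 2.09 and 1.87 against 2.30 and 2.45. The bin from 6501 to 7000, which held the last peaks before the 3′ end, was higher in differentiated C2C12, at 2.43 and 2.81 against 1.62 and 1.67. Of the 14 bins with peaks in all libraries, 8 were higher and 2 lower in both differentiated libraries than in both C2C12 libraries, and 4 overlapped. Without differentiated C2C12 B the share of higher bins was 64.3% in place of 57.1%, the share of lower bins 35.7% in place of 14.3%, and no bin overlapped.

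A contrast within each library removes any shift that is common to the whole RNA. This contrast was chosen after the profile had been seen. The mean log2 fold enrichment per covered nucleotide in the 5′ part was 1.38 and 1.44 in C2C12 myoblasts and 2.05 and 2.58 in differentiated C2C12. In the 3′ part it was 1.80 and 1.91 in C2C12 myoblasts and 1.73 and 2.06 in differentiated C2C12. The 5′ part minus the 3′ part was -0.42 and -0.47 in C2C12 myoblasts and 0.32 and 0.51 in differentiated C2C12. Both myoblast libraries were more enriched in the 3′ part and both differentiated libraries in the 5′ part, with a difference of 0.86 between the means (exact permutation p = 0.333).

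The p scores of the lists were of little use to rank Malat1 peaks. A −log10 p of exactly 400 was listed for 60 and 59 Malat1 peaks in C2C12, and for all 446 and all 337 in differentiated C2C12. The largest value below it at Malat1 was 87.9 and 86.8 in the C2C12 libraries. Outside Malat1 the value 400 was listed for 4.62% and 5.52% of C2C12 peaks and for 10.3% and 12.2% of differentiated C2C12 peaks. Whether 400 is a measured value or stands for p-values too small to compute was not tested. In C2C12, peaks listed at 400 had a median log2 fold enrichment of 2.44 and 2.58, and the other Malat1 peaks 1.02 and 1.06.

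The peaks of all lists were merged into regions wherever they touched or overlapped, which gave 43 regions in Malat1. All 4 libraries had a peak in 22 of them (51.2%), where the share over all 1015 regions of the lists was 7.59%. Both C2C12 replicates and neither differentiated library had a peak in 2 regions (4.65%, against 6.9% of all regions). Both differentiated replicates and neither C2C12 library had one in 3 (6.98%, against 19.8% of all regions). A single library had a peak in 10 (23.3%, against 59.5% of all regions). A shared region need not be covered over its whole length in each library, and coverage by nucleotide is given further on.

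Within the 22 regions shared by all libraries, the mean log2 fold enrichment was higher in both differentiated libraries than in both C2C12 libraries in 12 (54.5%). It was lower in 6 (27.3%). Without differentiated C2C12 B, 16 regions were higher and 11 lower, over a larger set of regions, those shared by the remaining 3 libraries. Over all 77 such regions of the lists these shares were 32.5% and 51.9%. Outside Malat1 13 of 55 regions were higher and 34 lower. The median difference, differentiated minus C2C12, was 0.47 in the Malat1 regions and -0.34 in the others. The difference between these medians was not tested.

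The order along the RNA was again marked. The 6 regions of this kind from position 33 to 1743 were all higher in differentiated C2C12, by 1.28 to 2.75 on the log2 scale. Between 1769 and 5656 the 15 shared regions were mixed, with 5 higher, 6 lower and 4 overlapping. The last shared region, from 6457 to 6626, was higher by 0.71.

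Ranked by the mean over libraries of its most enriched peak, the first of the regions shared by all 4 lay from position 2651 to 2817, at chromosome 19, 5799884 to 5800050. Its top peak reached a log2 fold enrichment of 4.05 and 4.08 in C2C12 myoblasts and 3.50 and 3.46 in differentiated C2C12. It held the 3 most enriched Malat1 peaks of C2C12 A, of C2C12 B and of differentiated C2C12 A. Averaged over the region the values were 3.04 and 3.06 in C2C12 myoblasts and 2.98 and 3.18 in differentiated C2C12, so the states overlapped in this region. Its borders differed at both ends. The outermost 25 nt on the 5′ side, from 2651 to 2675, were covered in both C2C12 libraries (2.47 and 2.31) and in no differentiated library. At the 3′ side the C2C12 A and C2C12 B peaks ended at 2777, and those of differentiated C2C12 A at 2817 and of differentiated C2C12 B at 2791.

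The second region lay near the 5′ end, from position 577 to 650 (chromosome 19, 5802051 to 5802124). Its mean log2 fold enrichment was 1.14 and 0.96 in C2C12 myoblasts and 3.12 and 4.48 in differentiated C2C12, the largest difference of any shared Malat1 region, at 2.75. In differentiated C2C12 B it held the 3 most enriched Malat1 peaks of that library, which were 2 to 6 nt wide, lay from 638 to 650 and reached 8.23, 7.88 and 7.77. These nucleotides were covered in none of the other 3 libraries, so the 3 values rest on 1 library. In differentiated C2C12 A the top value in the region was 3.25.

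Of the next 3 regions, that from 1769 to 1917 was more enriched in myoblasts, with means of 2.55 and 2.60 in C2C12 myoblasts and 2.41 and 2.36 in differentiated C2C12. The region from 6457 to 6626, the last before the 3′ end, had means of 1.83 and 1.89 in C2C12 myoblasts and 2.40 and 2.75 in differentiated C2C12. The region from 2139 to 2312 had means of 1.54 and 1.57 in C2C12 myoblasts and 2.03 and 2.48 in differentiated C2C12. The top peak of this region went the other way, at 3.20 and 3.28 in C2C12 against 2.62 and 3.06 in differentiated C2C12. A narrow myoblast maximum thus stood where the differentiated profile was broad.

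Counted by nucleotide, 3509 nt of the window were covered in at least 1 library and 1925 nt (54.9%) in all 4. Outside Malat1 the share covered in all 4 was 3.59%. Both C2C12 replicates and no differentiated library covered 68 nt (1.94%, against 5.53% outside Malat1). Both differentiated replicates and no C2C12 library covered 459 nt (13.1%, against 17.6% outside Malat1). Both shares were thus below those outside Malat1. Of the 459 nt, 409 nt (89.1%) lay in the 5′ part. Most bound sequence lay there in any case: 79.1% of the 2517 nt covered in both differentiated replicates did. Of the 68 nt, 41 nt (60.3%) lay in the 5′ part. The differences between these shares were not tested. With 1 library left out the condition is looser, so the 68 and 459 nt can only stay or rise. Without differentiated C2C12 A they were 306 and 710 nt, and without differentiated C2C12 B 120 and 749 nt. Without C2C12 A they were 102 and 542 nt, and without C2C12 B 68 and 509 nt.

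The longest stretch seen only in differentiated C2C12 was 49 nt, from position 748 to 796, where the 2 libraries had means of 1.47 and 2.06 on the log2 scale. It was followed by 45 nt from 1316 to 1360 (1.09 and 1.63) and 40 nt from 217 to 256 (1.86 and 2.00). All 3 lay within the first 1500 nt. The longest seen only in C2C12, besides the 25 nt named above, was 21 nt from 4890 to 4910, with 3.13 and 3.13. It lay in a region of 37 nt, from 4879 to 4915, in which no differentiated library had a peak, and it was among the few Malat1 stretches above 3 in C2C12. The longest stretch covered in all 4 libraries was 306 nt, from 1414 to 1719, and its means were 1.00 and 0.93 in C2C12 myoblasts and 1.96 and 2.80 in differentiated C2C12. The longest stretch between the outermost peaks with no peak in any library was 579 nt, from 5878 to 6456, just before the last bound region. The lists begin at a −log10 p of 5, and a stretch without a peak may have been bound below that level.

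Replicates were compared at Malat1 by position and by enrichment. At least 1 nt of overlap with C2C12 B was found for 254 of 269 C2C12 A peaks (94.4%, with a 95% Wilson interval of 91.0 to 96.6), and 238 of 247 (96.4%, 93.2 to 98.1) did so in the other direction. In differentiated C2C12 these counts were 386 of 446 (86.5%, 83.1 to 89.4) and 303 of 337 (89.9%, 86.2 to 92.7). These intervals also treat adjoining peaks as independent and cover counting error only. Outside Malat1 the same shares were 81.2% and 82.8% in C2C12 myoblasts and 65.8% and 58.1% in differentiated C2C12. Overlap was thus higher at Malat1 than elsewhere in each library, and peaks there are also more densely packed, whose part in the overlap was not tested.

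The borders of Malat1 peaks coincided between libraries as well. Of the starts and ends of C2C12 A peaks, 51.5% were at exactly the same nucleotide in C2C12 B and 50.7% in differentiated C2C12 A. They coincided with differentiated C2C12 B in 35.7%. For differentiated C2C12 A, 32.6% coincided with replicate B of its own state and 30.6% with C2C12 A. Outside Malat1 the share for C2C12 A was 21.8% in its replicate and 12.0% and 8.00% in the differentiated libraries. For C2C12 B the share was 56.1% in its replicate and 49.4% and 34.8% in differentiated C2C12 A and B. For differentiated C2C12 B it was 43.2% in its replicate and 28.5% and 25.5% in C2C12 A and B. Each library thus shared most borders with its own replicate, by less than 1 percentage point in C2C12 A. The lists offer unequal numbers of borders to match, from 494 in C2C12 B to 892 in differentiated C2C12 A, and the part of this in the shares was not tested.

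At the 2283 nt covered in both C2C12 replicates, the log2 fold enrichment of B minus that of A had a median of 0.00 and lay between -0.18 and 0.24 for the central 90% of nucleotides. At the 2517 nt covered in both differentiated replicates the median was 0.37, with a range of -0.16 to 1.03, and B was higher at 88.0% of nucleotides. Pearson's r along the RNA was 0.987 in C2C12 myoblasts and 0.800 in differentiated C2C12. These correlations are over neighbouring nucleotides of 1 RNA, which share peaks and may share an input, and are a description without a test. The myoblast profile was nearly the same in its replicates, and the differentiated replicates had a similar profile at unequal height.

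**Figure D4:**
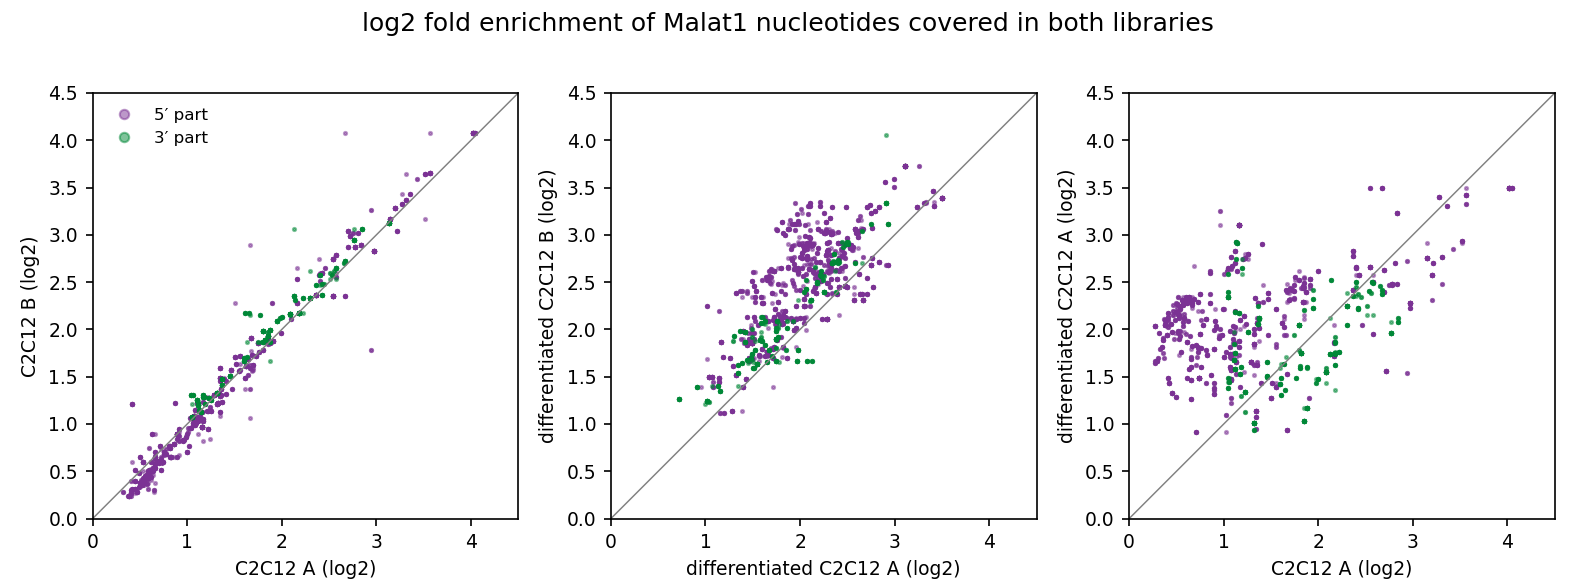
Log2 fold enrichment at each Malat1 nucleotide covered in both libraries of a pair, with 1 library per axis and points split into the 5′ part (positions 1 to 3550) and the 3′ part; the grey line marks equal values. C2C12 replicates lie on the line, differentiated replicates lie mostly above it, and between C2C12 A and differentiated C2C12 A the 5′ nucleotides with low values in C2C12 A form a separate cloud above the line.

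Between the states the profiles were less alike. Over nucleotides covered in both libraries, r was 0.431 between C2C12 A and differentiated C2C12 A (2246 nt) and 0.0426 between C2C12 B and differentiated C2C12 B (2033 nt). In the 5′ part the median of differentiated A minus C2C12 A was 0.75, and it was higher in differentiated A at 81.9% of nucleotides. In the 3′ part the median was -0.05 and 44.3% were higher. For the B libraries the medians were 1.12 in the 5′ part and 0.23 in the 3′ part. In both pairings the larger difference was in the 5′ part.

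Malat1 peaks were last set against the other peaks of the same library, since depth and input are shared within a library. In C2C12 A and B the median log2 fold enrichment of the other peaks was 2.35 and 2.60, and Malat1 minus the others was -1.21 and -1.31. In differentiated C2C12 A and B the others had medians of 1.80 and 1.95, and Malat1 minus the others was 0.16 and 0.66. Over the 4 libraries there was no common direction (mean -0.42 ± 0.99, SD, n = 4, exact two-sided sign-flip permutation p = 0.5). Between the states this difference changed by 1.67, with the libraries of each state on opposite sides of 0 (exact permutation p = 0.333). The opposite sides were not kept in every setting. With touching peaks joined, Malat1 was lower in all 4 libraries (mean -0.83, exact two-sided sign-flip permutation p = 0.125), and the change was 1.13. When peaks below a log2 fold enrichment of 3 were left out, it was again lower in all 4 (mean -0.54), and the change was 0.28. With a minimum −log10 p of 8 the mean was -0.027 and the change 1.54. With peaks as deposited, but without mitochondrial peaks and the neighbouring locus, Malat1 was also the lower one in differentiated C2C12 A, at -0.18. The mean per covered nucleotide, which gives wide peaks more weight, was 1.97 at Malat1 and 2.30 elsewhere in differentiated C2C12 A, and 2.48 and 2.27 in differentiated C2C12 B, so the direction in replicate A depends on the measure.

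Malat1 peaks were narrower than the others in all 4 libraries. The other peaks had median widths of 47 and 47.5 nt in C2C12 myoblasts and 43 and 67 nt in differentiated C2C12. The mean difference was -44.6 ± 11.0 nt (SD, n = 4), and the exact two-sided sign-flip permutation test gave p = 0.125, the smallest value that 4 libraries allow. With the stricter minimum −log10 p of 8 named in the methods, the mean difference kept its sign but shrank to -15.75 nt.

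**Figure D5:**
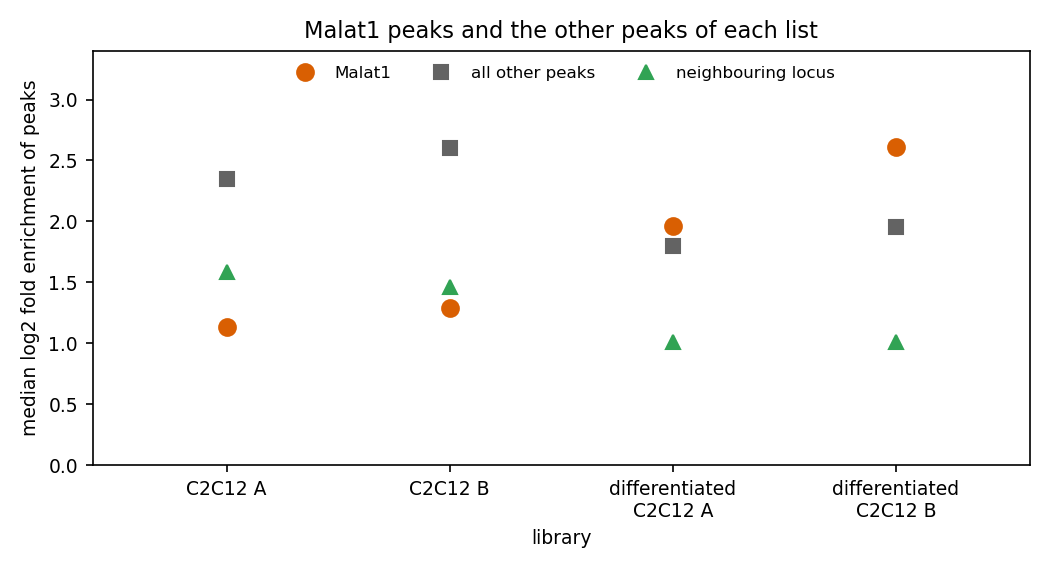
Median log2 fold enrichment of peaks in each library (x axis) for Malat1, for all peaks outside it and for the neighbouring locus on the same strand; each point is the median of 1 library. Malat1 is the lowest of the 3 in both C2C12 libraries and the highest in both differentiated libraries.

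The nearest peak-rich locus on the same strand spans 5824777 to 5845479. In a RefSeq gene table of another mouse build (GRCm38.p6) the gene after Malat1 and the small RNA cut from it is Neat1, the long noncoding RNA that builds paraspeckles. This locus held 40 and 36 peaks in C2C12 myoblasts and 136 and 124 in differentiated C2C12, more in the differentiated libraries, as at Malat1. The whole lists held 594 and 591 peaks in C2C12 myoblasts and 1499 and 1211 in differentiated C2C12. As a share of the list, the locus was thus higher in both differentiated libraries, where Malat1 was lower. Its median log2 fold enrichment was 1.59 and 1.46 in C2C12 myoblasts and 1.01 and 1.01 in differentiated C2C12, where that of Malat1 was 1.96 and 2.61. The difference, Malat1 minus the neighbouring locus, was -0.45 and -0.17 in C2C12 myoblasts and 0.95 and 1.60 in differentiated C2C12 (exact permutation p = 0.333). Peak number was higher in differentiated C2C12 at both loci, while the share of the list was lower at Malat1 and higher at its neighbour. The median enrichment was higher at Malat1 and lower at its neighbour.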

How the data were processed

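Per the study's methods, the authors removed adapters and reads from repetitive elements, mapped what was left to mm9 (STAR), discarded PCR duplicates using the random barcodes, and called peaks (CLIPper). Each IP library has its own deposited list, of 6 columns without a header. Column 4 was taken as the −log10 p of IP against size-matched input reads, deposited from 5 up to 400, and column 5 as the deposited log2 fold enrichment, all above 0. The methods name a stricter minimum −log10 p of 8, which was one of the alternatives. Read totals were not used, so depth is unknown. Repeat filtering, the p threshold and the input all affect which peaks appear, and an abundant RNA such as Malat1 can pass at low enrichment.

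Starts were converted to 1-based positions. Because 75 peaks ended beyond chromosome ends of GRCm38, the reference at hand, no sequence or annotation was read by coordinate, and the planned motif content was not run. States were compared by exact permutation of library means, and Malat1 with other peaks by exact sign flips. Named stretches followed a rule: the 3 top peaks per library, the 5 top shared regions by log2 fold enrichment, the 3 longest stretches of each state, and the longest stretches covered in all libraries and in none. The members, lists and tests were chosen with earlier results of these data known. Alternatives were stricter −log10 p or log2 fold enrichment minimums, joined peaks, other overlap rules and bins, other comparison sets and leaving out replicates. Labels name no separate cultures, and the p-values measure only the spread between these libraries. Functions were checked on simulated lists and against bedtools 2.31.1. The scripts ran under Python 3.11.15 with scipy 1.17.1, numpy 2.4.6, pandas 2.3.3 and matplotlib 3.10.9.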

Additional observations from a re-analysis of the deposited data

Results flagged for a closer look

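The enrichment of the 5′ part of Malat1 relative to its 3′ part had opposite signs in the states: -0.42 and -0.47 in C2C12 myoblasts and 0.32 and 0.51 in differentiated C2C12, a difference of 0.86 between the means on the log2 scale. The median enrichment of Malat1 peaks relative to the other peaks of the list also had opposite signs, at -1.21 and -1.31 in C2C12 myoblasts and 0.16 and 0.66 in differentiated C2C12, a difference of 1.67. By these measures the libraries of one state lay on the opposite side of 0 from those of the other. For the second, differentiated C2C12 A was at -0.18 without mitochondrial peaks and the neighbouring locus, so its sign depends on the comparison set. With touching peaks joined, or with a minimum log2 fold enrichment of 3, Malat1 was below the other peaks in all 4 libraries. The opposite signs of the second measure were not kept in those settings. With 2 libraries per state the exact permutation p of 0.333 could not be lower. The input level of Malat1 along the RNA in each state was not analysed here, and its part in these values was not tested.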

How the results depend on the processing

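Of 169 values under alternatives, 140 kept their direction or stayed within the limit set for them. The difference between 5′ and 3′ enrichment kept its sign in all 7 alternatives that gave a value, from 0.76 to 0.96. A minimum log2 fold enrichment of 3 gave none. The difference in covered nucleotides kept its sign in all 8 of its alternatives, from 177 to 693 nt. The 177 nt came with a minimum log2 fold enrichment of 3, where the libraries of the states overlapped. Joining touching peaks and pairing replicates could change neither difference, and left them at 0.86 and 566 nt. The difference in the share in the 5′ part kept its sign but ran from 0.64 to 7.42 with 1 replicate left out. With only peaks of log2 fold enrichment 3 or more, there were on average 13.5 and 43 Malat1 peaks in C2C12 and differentiated C2C12, with 12 and 15 in C2C12 A and B and 8 and 78 in differentiated C2C12 A and B, so the second mean rests on replicate B. The difference in their share of the list reversed to 6.60 percentage points, and that in median enrichment to -0.070. In that setting 88.9% and 17.4% of peaks were shared by replicates, 55 nt were covered in all libraries and 50 nt in differentiated C2C12 only. The share of bins higher in differentiated C2C12 was then 0% and of bins lower 100%, with 0 regions higher and 1 lower; a minimum of 3 removes most of the profile by construction. After joining touching peaks there were 44.5 and 41 peaks, the difference in number reversed to -3.5 and that in median width to 16 nt, and 92.1% and 80.5% were shared. With reciprocal overlap of 50% the shared percentages were 81.8 and 64.1, and with identical ends 28.3 and 13.3, against 95.3 and 88.0 as reported. Counting nucleotides within 20 nt as seen left 26 nt for C2C12 only and 104 nt for differentiated C2C12 only.

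With 1 replicate left out at a time, nucleotides in C2C12 only ran from 68 to 306 and those in differentiated C2C12 only from 509 to 749. These counts can only stay or rise in this setting, since fewer libraries must meet the condition. Regions lower in differentiated C2C12 ran from 6 to 11 and regions higher from 13 to 16, over the regions shared by the libraries left; without differentiated replicate B they were 11 and 16. With libraries of the same letter paired (replicate block) the difference of 0.86 was the same and the exact sign-flip p was 0.5, the smallest for 2 pairs. The labels do not say that letters mark a shared batch, and no sign changed. Leaving out peaks listed at 400 gave no value, since no differentiated Malat1 peak was left. The lists give no reads, so no limit of depth could be set. The cause of these changes was not tested.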
